A study of Mus musculus with 23 samples.

Results

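Ttr, Kl, Prlr, Otx2, Enpp2, Folr1, Aqp1, Kcnj13, Slc4a5 and Clic6 are 10 genes by which the choroid plexus is recognised, and they were examined here in RNA from dissected hippocampus. They were chosen by name as genes of hormone transport, hormone response, ion and water transport and identity in that tissue, and are 10 of the 45706 genes in the count table. The study sequenced hippocampus of female mice with the Ins2 gene intact (Ins2+/+, WT, n = 12) and of female mice that lack it (Ins2-/-, KO, n = 11), with 1 library for each animal. Ins2 encodes an insulin, and the study asks what the loss of insulin made in the brain does to learning and memory. The labels give no age, strain, litter or batch, and name no driver or cell type that would limit the deletion. Libraries held 13792274 to 22953261 counts. Ins2 had 26 counts over the WT libraries, present in 7 of the 12 and 18 of them in WT library 17, and 0 in the KO libraries, so its level checks the labels only weakly.

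The choroid plexus is a fringe of vessels covered by a secretory epithelium that hangs in the brain ventricles, next to the hippocampus, and makes cerebrospinal fluid. Its epithelium moves ions, water, folate and thyroid hormone between blood and fluid, releases hormones and growth factors, and carries receptors for circulating hormones such as prolactin. It is among the richest sources of transthyretin in the body, so that a trace of it taken along in a dissection is seen first as Ttr. In bulk RNA, fewer choroid plexus cells and less RNA per cell cannot be told apart.

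The start regions of 4 of the genes are shown as examples of low and of kept levels where Ttr was scarce. Kcnj13 and Aqp1 had median levels there under 1 CPM, the count relative to the library's scaled total, while Kl and Prlr held 23.1 and 5.21 CPM. Each stretch holds the 250 bases before an annotated RefSeq start on GRCm38.p6, written 5′ to 3′ on the gene's strand. They lie at chr1:87394730-87394979 on the minus strand for Kcnj13 and, on the plus strand, at chr6:55336049-55336298 for Aqp1, chr5:150952357-150952606 for Kl and chr15:10176988-10177237 for Prlr. No GENCODE M21 exon falls in them. Capitals mark matches, on either strand, to TAATCC, the core bound by Otx and related homeodomain proteins, to TGTTTA, a forkhead core, and to ATTGG, the CCAAT box read in reverse.
Kcnj13: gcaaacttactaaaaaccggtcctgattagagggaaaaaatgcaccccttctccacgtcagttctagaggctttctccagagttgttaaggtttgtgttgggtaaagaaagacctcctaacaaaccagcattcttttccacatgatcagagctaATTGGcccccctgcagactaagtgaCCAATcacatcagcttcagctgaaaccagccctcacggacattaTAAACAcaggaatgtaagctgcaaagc
Aqp1: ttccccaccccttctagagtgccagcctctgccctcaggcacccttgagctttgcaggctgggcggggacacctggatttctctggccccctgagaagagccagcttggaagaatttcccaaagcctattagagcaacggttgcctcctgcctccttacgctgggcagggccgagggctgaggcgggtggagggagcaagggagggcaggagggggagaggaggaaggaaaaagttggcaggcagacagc
Kl: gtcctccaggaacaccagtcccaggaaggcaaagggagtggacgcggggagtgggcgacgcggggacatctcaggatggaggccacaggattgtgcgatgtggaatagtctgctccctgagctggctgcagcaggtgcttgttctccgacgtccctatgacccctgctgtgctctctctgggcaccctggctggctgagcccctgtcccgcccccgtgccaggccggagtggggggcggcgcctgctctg
Prlr: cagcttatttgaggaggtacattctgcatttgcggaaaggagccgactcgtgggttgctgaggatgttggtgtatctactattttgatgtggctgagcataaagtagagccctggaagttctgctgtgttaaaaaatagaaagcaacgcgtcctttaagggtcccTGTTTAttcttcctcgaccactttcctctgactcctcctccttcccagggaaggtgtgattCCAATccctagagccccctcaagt
The Kcnj13 stretch holds a CCAAT box in each orientation, beginning 96 and 71 bases before the start, and a forkhead core 27 bases before it. In the Prlr stretch, a forkhead core begins 85 bases and a CCAAT box 24 bases before the start. Prlr has other annotated starts, not shown. The window at chr15:10223656-10223905 holds 2 forkhead cores alone, and that at chr15:10293401-10293650 holds none of the 3 motifs. Those of Aqp1 and Kl hold none of the 3 motifs, and no stretch of the 4 holds TAATCC. Of 32851 windows of the same length, 6.25% hold TAATCC, 12.03% TGTTTA and 33.8% ATTGG. A match describes letters and is not a shown site. The tables used matched promoters for 6 of the 9 genes other than Ttr, namely the 4 printed, Otx2 and Slc4a5, and the Slc4a5 stretch is not shown since it lies in the gene's own transcribed part.

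Ttr encodes transthyretin, the carrier of thyroid hormone and retinol-binding protein (chr18:20665280-20674321, plus strand, GRCm38). Its count split the libraries widely. It was 43446 in WT library 14, 50912 in KO library 2, 146136 in KO library 6, 208556 in KO library 12 and 296745 in WT library 17. In the other 18 libraries, 10 WT and 8 KO, it ran from 7 to 1173 with a median of 337. No library lay between 1173 and 43446, so the limit of 10000 Ttr counts that separates both sets could be moved to 5000 or 20000 without moving a library. In CPM, Ttr ran from 0.419 to 55.2 in the poor set and from 2877 to 18399 in the rich set, a 450-fold difference of medians. Both genotypes occurred in both sets, with 2 WT and 3 KO libraries in the rich set.

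The library with the fewest Ttr counts, KO library 8, stands apart and touches several results below. Its summed level of 8 hypothalamic marker genes was 1395 CPM, against 1.16 to 8.48 CPM in the other libraries, and included 5258 counts of Avp and 1764 of Hcrt. Its summed level of 8 markers of hippocampal neurons was 171 CPM, against 617 to 987 CPM elsewhere. Several of the values it moves are given with and without it. In the poor set the meningeal markers summed to 30.8 to 147 CPM and in the rich set to 89.5 to 208 CPM, and the endothelial markers to 57.3 to 118 CPM against 116 to 142 CPM. Ependymal markers summed to 4.97 to 59.5 CPM in the poor set and 18.5 to 54.7 CPM in the rich set. How much such neighbouring cells add to the levels of the 10 genes was not tested.

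All 10 genes were higher in each of the 5 Ttr-rich libraries than in any of the 18 Ttr-poor libraries. Of the 15049 genes other than Ttr with a median of at least 1 CPM in the rich set, 238, or 1.58%, were separated in this way, the 9 members among them. The fold between the median CPM of both sets ran from 12.6 for Kl to 341 for Slc4a5, with a median of 49.3 over the 9 genes other than Ttr. Over all 15828 genes that passed the filter on low counts, the median fold was 0.986 and 474 genes, 2.99%, were at least 2-fold higher. The sets were split by Ttr itself, so these folds are a description. The 9 genes differed both in their level in the rich set and in the level that remained where Ttr was scarce.

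**Figure D1:**
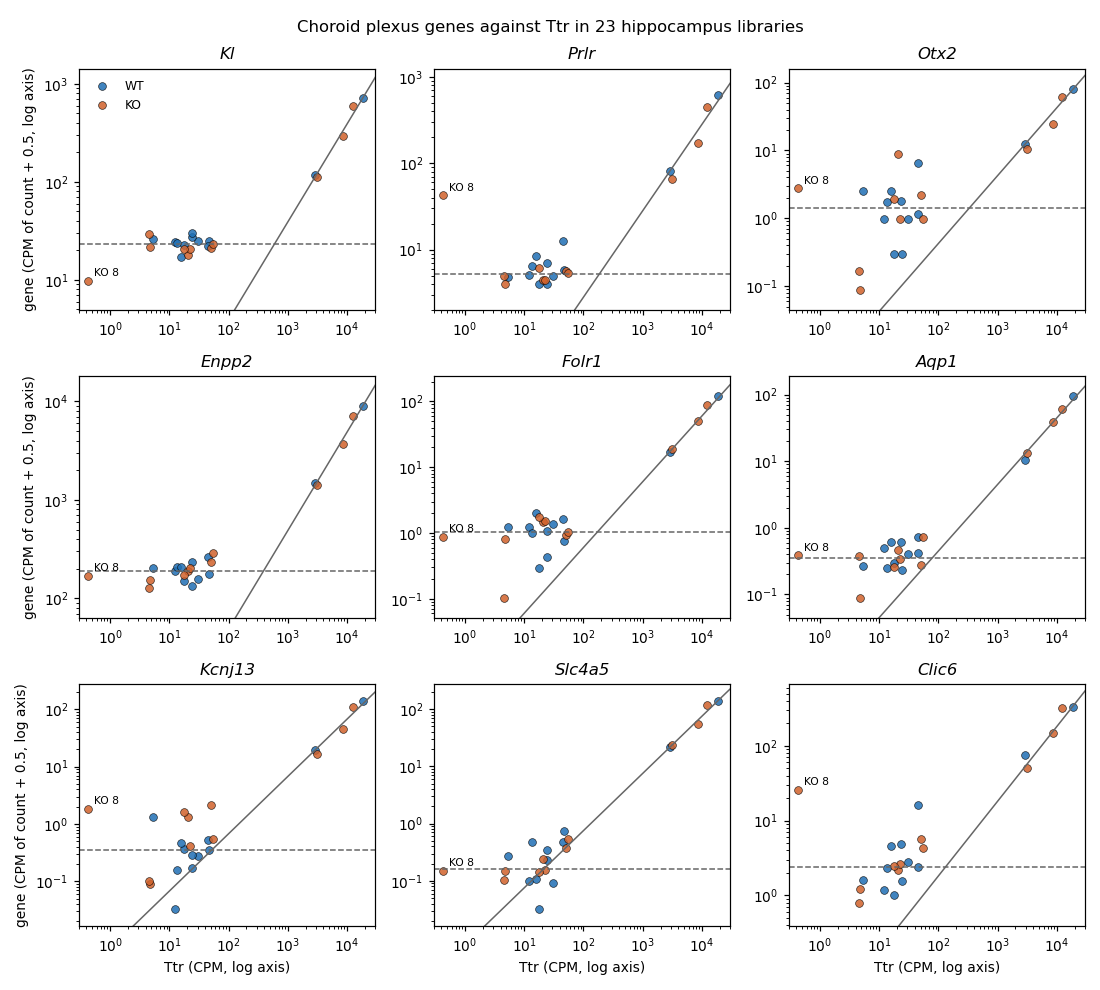
Level of 9 choroid plexus genes (CPM of count + 0.5, log axis) against Ttr (CPM, log axis) in 23 hippocampus libraries, WT in blue and KO in orange; solid lines mark the median ratio to Ttr in the 5 rich libraries and dashed lines the median of the 18 poor ones. The rich libraries follow the solid line for every gene, while the poor ones lie along the dashed line for Kl and Enpp2 and come near the solid line for Slc4a5.

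Genes were sorted by their ratio to Ttr. A gene was described as choroid-only where its median ratio in the poor set was within 2-fold of that in the rich set, and otherwise as having a hippocampal background, meaning RNA from other cells of the dissected tissue. The rule takes Ttr as having no such background itself, which was not tested. By this rule 1 of the 9 genes, Slc4a5, was choroid-only, with a ratio 1.29 times as high in the poor set. Of the same 15049 genes, 2 genes, 0.0133%, met the rule, Slc4a5 and the potassium channel subunit Kcne2. Kcnj13, the nearest on the other side, was at 2.05, and at 1.85 without KO library 8, which puts it within the limit. By counts summed over the libraries it lay outside in both cases, at 2.78% of Ttr in the poor and 0.719% in the rich set, 3.87 times as high, and 3.33 times without KO library 8. Aqp1 followed at 3.44, Clic6 at 6.97, Folr1 at 9.21, Prlr at 10.2, Otx2 at 13.96, Enpp2 at 19.4 and Kl at 29.6. Without KO library 8 these were, in the same order, 3.34, 6.37, 7.45, 9.91, 10.2, 18.9 and 29.5. For comparison, with that library in, the same value had a median of 450 over 15825 tested genes, which equals the fold of Ttr between the sets.

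Among the hormone genes, Kl and Prlr both kept a clear level in Ttr-poor libraries. Kl encodes klotho, the co-receptor for the phosphate hormone FGF23, which is also shed into blood and cerebrospinal fluid (chr5:150952607-150993817, plus strand). It measured 112 CPM in KO library 2, 119 in WT library 14, 292 in KO library 6, 594 in KO library 12 and 717 in WT library 17. In the poor set it held between 9.77 and 30.1 CPM with a median of 23.1, the lowest value being that of KO library 8 and the next 17.1 CPM. Kl thus had 163 to 532 counts in libraries with 7 to 1173 Ttr counts. Only 3.56% of its summed count there could be accounted for at the rich-set ratio to Ttr. For such shares, here and below, that ratio is the median over the rich set, taken net of the poor-set median level.

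Prlr encodes the prolactin receptor (chr15:10177238-10349180, plus strand). It measured 65.7 CPM in KO library 2, 81.2 in WT library 14, 173 in KO library 6, 449 in KO library 12 and 623 in WT library 17. Its median in the poor set was 5.21 CPM with a range of 3.95 to 42.5, and 8.14% of its summed count there, 11.4% without KO library 8, matched the rich-set ratio. The highest value, 710 counts, was that of KO library 8, and the next was 12.6 CPM in WT library 15. A gene model without a proper name, Gm21973, shares 203 exon bases with Prlr on the same strand, so a few Prlr reads may have been counted elsewhere.

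Otx2, the homeodomain regulator that is needed for the choroid plexus to form, ranged widely where Ttr was scarce (chr14:48657677-48673819, minus strand). It measured 10.5 CPM in KO library 2, 12.2 in WT library 14, 24.7 in KO library 6, 60.7 in KO library 12 and 80.2 in WT library 17. Across the poor set it ran from 0.0592 to 8.97 CPM with a median of 1.43, that is from 1 to 165 counts. The highest values were those of KO library 4, with 165 counts, and WT library 15, with 144 counts. In KO library 4 the 5 thalamic and habenular markers summed to 106 CPM, against 65.4 to 80.6 CPM in the libraries other than it and KO library 8. Of these markers, Tcf7l2, with 384 counts, and Rora, at 59.4 CPM, were above all libraries but KO library 8. Lhx9, Tac2 and Gbx2 in KO library 4 lay within the range of the other libraries, Gbx2 at 0.217 CPM. WT library 15 had a thalamic sum of 66.6 CPM, of which Rora and Lhx9 made up 40.1 and 16.4 CPM. Its Gbx2 level, 0.538 CPM, was above that of KO library 4, and its ependymal sum, 59.5 CPM, was the highest. The part of such tissue in the Otx2 level was not tested. Up to 168 exon bases of Otx2 are shared with Gm49154 and the antisense gene Otx2os1, but Otx2os1 had at most 17 counts in any library.

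Enpp2 encodes autotaxin, the secreted enzyme that makes lysophosphatidic acid, and was the member with the highest CPM after Ttr in the 5 rich libraries (chr15:54838901-54952892, minus strand). It measured 1407 CPM in KO library 2, 1501 in WT library 14, 3667 in KO library 6, 7148 in KO library 12 and 8989 in WT library 17. In the poor set it exceeded Ttr, with at least 386% of the Ttr count in each library. It held 127 to 286 CPM there with a median of 189, and 5.60% of the summed Enpp2 count there matched the rich-set ratio. Oligodendrocytes also make autotaxin, and 8 oligodendrocyte markers summed to 3441 to 8436 CPM in the poor set and 4340 to 6031 CPM in the rich set. The lowest Enpp2 levels of the poor set, 127 CPM in KO library 22 and 132 CPM in WT library 20, came with the lowest oligodendrocyte sums, 3441 and 3916 CPM. The highest, 264 CPM in WT library 15 and 286 CPM in KO library 16, came with the highest sums, 8130 and 8436 CPM. The part of these cells in the Enpp2 level was not tested further.

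Folr1 encodes the folate receptor that carries folate across the choroid plexus (chr7:101858331-101870788, minus strand). It measured 16.8 CPM in WT library 14, 18.7 in KO library 2, 50.6 in KO library 6, 87.5 in KO library 12 and 120 in WT library 17. Poor libraries had 1 to 36 counts, or 0.0681 to 2.01 CPM with a median of 1.03, and 12.9% of the summed Folr1 count matched the rich-set ratio. The lowest count was that of KO library 22 and the highest that of WT library 15, and the genotypes overlapped.

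Of the 4 transport genes, Slc4a5, Aqp1 and Kcnj13 had poor-set medians between 0.163 CPM for Slc4a5 and 0.352 CPM for Kcnj13, and Clic6 kept more, 2.40 CPM. Slc4a5, a sodium bicarbonate cotransporter of the epithelium's fluid-facing side (chr6:83219828-83304945, plus strand), had 333 counts in WT library 14, 384 in KO library 2, 940 in KO library 6, 1954 in KO library 12 and 2205 in WT library 17. Poor libraries had 0 to 11 counts, with a median of 2.5, at most 0.717 CPM. Summed over the poor set it had 79 counts beside 7618 of Ttr. That is a ratio of 1.04% (95% exact Poisson interval of its count 0.821 to 1.29%), against 0.780% in the rich set (0.760 to 0.800%). Intervals of this kind take the Ttr count as fixed and cover counting error only, not the spread between libraries. Reads copied by PCR are not independent molecules either. The net rich-set ratio accounted for 72.2% of the summed Slc4a5 count in the poor set, the highest share of the 9 genes.

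Aqp1, the water channel of that membrane (chr6:55336432-55348555, plus strand), had 158 counts in WT library 14, 219 in KO library 2, 656 in KO library 6, 1042 in KO library 12 and 1517 in WT library 17. In the poor set it had 1 to 16 counts, 0.0592 to 0.717 CPM, and its summed ratio to Ttr was 1.58% against 0.482% in the rich set. Red blood cells and some vessels also carry Aqp1. The 4 blood markers summed to 78.2 to 560 CPM in the poor set and 194 to 278 CPM in the rich set, and their part in the Aqp1 level was not tested.

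Kcnj13, the inward rectifier potassium channel Kir7.1 (chr1:87386363-87394729, minus strand), had 268 counts in KO library 2, 293 in WT library 14, 769 in KO library 6, 1816 in KO library 12 and 2214 in WT library 17. The count in the poor set was 0 to 49, or 0 to 2.12 CPM with a median of 0.352. Its level is uncertain there. It shares 623 of its 1270 exon bases with Gigyf2 on the opposite strand, Gigyf2 had 1247 to 2133 counts in the libraries, and Kcnj13 counts were fractional in 14 libraries. The use of strand in counting is not given in the sources used here. The 5 poor libraries with the most Kcnj13, at 2.12 CPM in KO library 13, 1.798 in KO library 8, 1.60 in KO library 21, 1.304 in KO library 4 and 1.27 in WT library 11, also had the 5 highest meningeal sums of the poor set, at 147, 104, 96.4, 106 and 105 CPM. The other 13 had 0 to 0.522 CPM of Kcnj13 and meningeal sums of 30.8 to 85.1 CPM. This was noticed after the values were seen, and the part of meningeal cells in the Kcnj13 level was not tested.

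Clic6, a chloride intracellular channel protein (chr16:92485736-92541243, plus strand), measured 51.0 CPM in KO library 2, 75.9 in WT library 14, 148 in KO library 6, 321 in KO library 12 and 334 in WT library 17. Its level in the poor set ran from 0.749 to 25.8 CPM with a median of 2.40. The top was again KO library 8, with 431 counts, followed by WT library 15 with 356 counts and 15.96 CPM. Of its summed count in the poor set, 8.98% matched the rich-set ratio, and 12.5% without KO library 8.

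In the rich set the genes were compared by their level relative to Ttr, and the part of neighbouring cells in these levels was not tested. Net of the median level of the poor set, Enpp2 reached 39.2 to 56.2% of the Ttr level in CPM, Kl 2.88 to 4.61%, Prlr 1.94 to 3.58% and Clic6 1.56 to 2.58%. The net share was 0.641 to 0.936% for Slc4a5, 0.515 to 0.868% for Kcnj13, 0.547 to 0.698% for Folr1, 0.351 to 0.509% for Aqp1 and 0.269 to 0.479% for Otx2. The highest of the 5 libraries was thus 1.28 times the lowest for Folr1 and 1.84 times for Prlr, with the other genes between. KO library 12 had the highest net ratio for 8 of the 9 genes, and WT library 17 for Aqp1. The ratios of a library share its Ttr count as denominator, so their common order counts once and not 8 times. For each gene the range of the 3 KO values overlapped that of the 2 WT values.

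Levels of different genes can be compared only per length. Per kilobase of exon, the median net level in the rich set was 9.36% of the Ttr level per kilobase for Enpp2, 0.618% for Kcnj13, 0.546% for Clic6 and 0.423% for Kl. It was 0.296% for Folr1, 0.204% for Prlr, 0.201% for Aqp1, 0.153% for Slc4a5 and 0.106% for Otx2. The exons of Kl and Prlr span 9328 and 15339 bases and those of Kcnj13 1270, so Kcnj13 lay above both per kilobase.

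**Figure D2:**
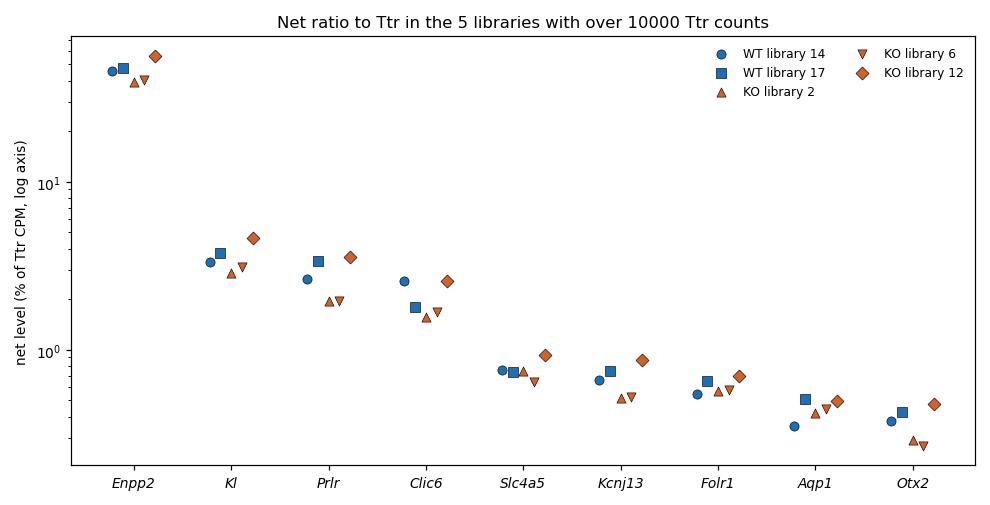
Net level of 9 genes (CPM minus the median of the Ttr-poor libraries, as % of Ttr CPM, log axis) in the 5 libraries with over 10000 Ttr counts, 1 symbol per library, WT in blue and KO in orange. Enpp2 is the highest at 39.2 to 56.2% of Ttr, the others lie between 0.269 and 4.61%, and for each gene both genotypes overlap.

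In the 18 Ttr-poor libraries the genes were tested for a slope on Ttr, the log2 change for each doubling of Ttr, with genotype in the model. Of 15878 genes tested, 9.44% had a slope by edgeR's quasi-likelihood test at an adjusted p under 0.05, 5.95% falling with Ttr, and 1 of the 6 members tested was among them. Prlr fell by 0.33 ± 0.0824 (SE) for each doubling (edgeR adjusted p = 0.0241). The slopes of the other 5 members were 0.08 ± 0.0470 for Kl, 0.11 ± 0.198 for Otx2, 0.09 ± 0.0410 for Enpp2, 0.10 ± 0.120 for Folr1 and -0.21 ± 0.145 for Clic6, none past the threshold. Without WT library 15 the slope of Otx2 was 0.0027 ± 0.202. Without KO library 8, which combined the lowest Ttr with the highest Prlr, its slope was 0.15 ± 0.0856 (edgeR adjusted p = 0.317). No gene of 15950 had a slope past the threshold in that fit, with 3473 of them at an unadjusted p under 0.05, while DESeq2 called 973 genes. Those of the other 5 without that library were 0.78 ± 0.180 for Clic6 (edgeR adjusted p = 0.0761), 0.44 ± 0.356 for Otx2, 0.16 ± 0.0603 for Enpp2, 0.16 ± 0.182 for Folr1 and -0.04 ± 0.0424 for Kl. A gene found only with Ttr would have a slope of 1. Aqp1, Kcnj13 and Slc4a5 did not pass the filter. Without a filter and without KO library 8 they gave 0.35 ± 0.154, 0.22 ± 0.301 and 0.58 ± 0.218, none of them past the threshold. Over all 23 libraries the 6 members had slopes of 0.40 to 0.61. These include the 5 libraries that the split by Ttr set apart, and are a description like the folds.

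The comparison of the genotypes asks whether the loss of Ins2 came with a change in these genes. None of the 7 members that passed the filter differed between KO and WT, where 0.0126% of the 15828 genes tested did, namely Ccnd1 and Gm26793, which are no members. Differences, KO minus WT on the log2 scale, ran from 0.12 ± 1.07 (SE) for Prlr to 0.46 ± 1.12 for Clic6, with Ttr at 0.30 ± 1.59, Otx2 at 0.16 ± 0.961, Kl at 0.23 ± 0.821, Enpp2 at 0.27 ± 0.922 and Folr1 at 0.28 ± 1.10. The adjusted p in edgeR was 0.923 to 0.978. Without the filter, the other members gave 0.23 ± 1.26 for Aqp1, 0.27 ± 1.28 for Kcnj13 and 0.41 ± 1.38 for Slc4a5. With standard errors of this size a doubling lay within 2 standard errors of 0 for every member. By unadjusted p, 0 of the 7 were under 0.05 in edgeR, where 5.74% of all genes tested were. In DESeq2, which by default replaces outlying counts and gave differences of 1.196 to 3.0, it was 6 of the 7 beside 6.17% of all genes. None passed the threshold once adjusted, where DESeq2 called 0.0253% of the genes. Without that replacement DESeq2 gave 0.12 to 0.46. Single rich libraries decided the values: the difference in Ttr was 2.98 without WT library 17 and -0.58 without KO library 12, and for the other 6 members it was 1.69 to 2.61 and -1.02 to -0.62, none past the threshold.

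**Figure D3:**
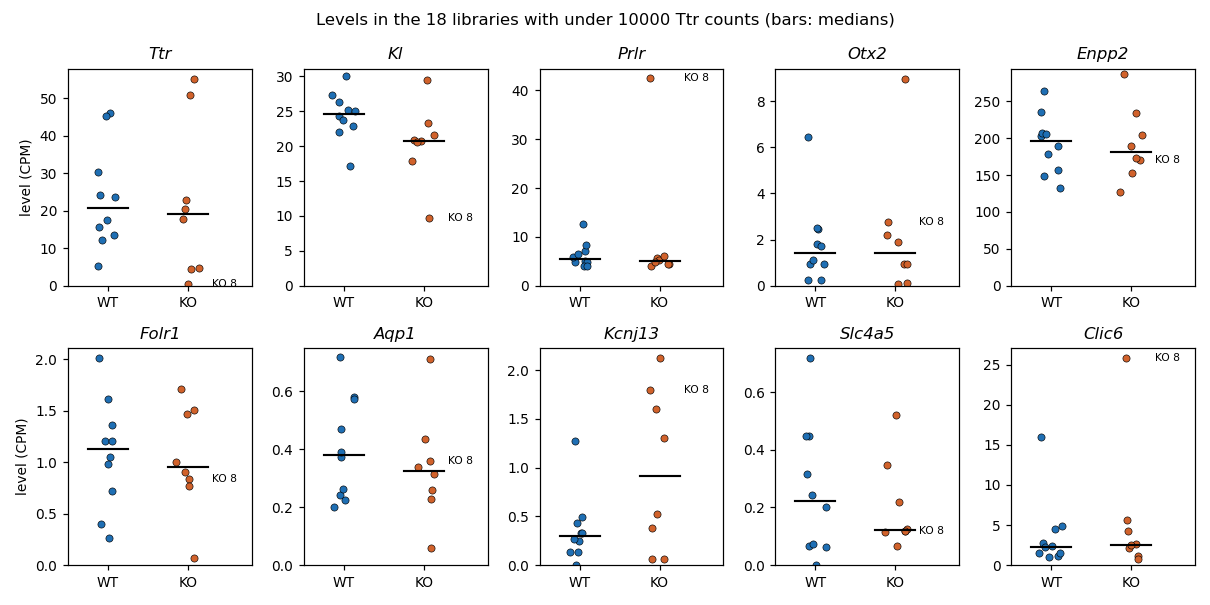
Levels in CPM of the 10 genes in the 18 libraries with under 10000 Ttr counts, 10 WT (blue) and 8 KO (orange), with bars at the medians and KO library 8 marked. WT and KO libraries overlap for every gene, and KO library 8 is the highest for Prlr at 42.5 CPM and for Clic6 at 25.8 CPM.

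With Ttr held equal, by its log2 level and the square of it as covariates, none of the 6 members tested differed between the genotypes, where 0.0126% of 15827 genes did. The differences, KO minus WT, were -0.05 ± 0.117 for Enpp2, -0.20 ± 0.165 for Kl, -0.29 ± 0.193 for Prlr, -0.02 ± 0.252 for Folr1, -0.23 ± 0.429 for Clic6 and 0.08 ± 0.498 for Otx2 (edgeR adjusted p 0.767 to 0.991). The standard error for Enpp2 was 0.922 without and 0.117 with Ttr in the model, and that for Kl 0.821 and 0.165. Without the filter, Aqp1 gave -0.02 ± 0.179, Slc4a5 -0.0048 ± 0.151 and Kcnj13 0.54 ± 0.395. By unadjusted p, 0 of the 6 were under 0.05 in edgeR and in DESeq2, beside 6.63% and 7.05% of all genes. DESeq2 called 0.0569% of the genes and no member. With log2 Ttr alone as covariate, the differences of Kl, Prlr, Enpp2, Folr1 and Clic6 changed direction, up to 1.06 for Prlr and 1.10 for Clic6, and none passed the threshold.

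In the 18 Ttr-poor libraries alone, where Ttr differed by -0.07 ± 0.558 between the genotypes, 0 of the 7 members tested differed and 0.00630% of 15879 genes did. The median of Kl was 24.7 CPM in WT and 20.8 CPM in KO, that of Prlr 5.45 and 5.11 CPM, and that of Enpp2 196 and 182 CPM, with the genotypes overlapping for each. The fitted difference was -0.25 ± 0.144 for Kl, and -0.15 ± 0.0982 without KO library 8. For Prlr it was 0.59 ± 0.441 and turned to -0.36 ± 0.203 without that library, and for Clic6 0.52 ± 0.641 and -0.49 ± 0.545. Kcnj13 had a median of 0.295 CPM in WT and 0.913 CPM in KO, or 0.522 CPM in KO without library 8. Its difference in the fit without a filter, 1.43 ± 0.599, did not pass the threshold (edgeR adjusted p = 0.634) and was 1.28 ± 0.623 without that library (edgeR adjusted p = 0.703). It rests on 0 to 49 counts of a gene that overlaps Gigyf2, and 4 of the 5 libraries with the highest meningeal sums of the poor set were KO.

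**Figure D4:**
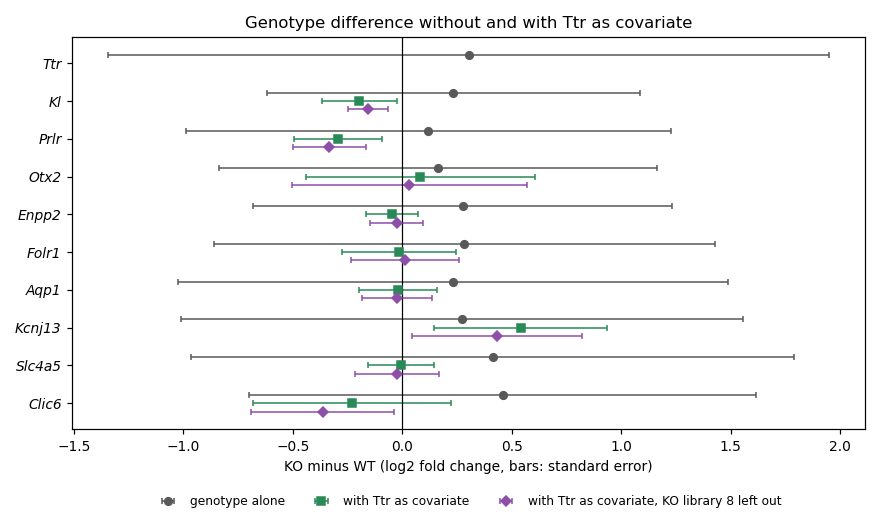
Difference between genotypes (KO minus WT, log2 fold change, bars: standard error, all fits without a filter on low counts) for the 10 genes, with genotype alone in the model (circles), with Ttr as covariate (squares) and with Ttr as covariate and KO library 8 left out (diamonds). The bars for Enpp2 shrink from 0.956 to 0.119 once Ttr is in the model, and no difference passed the threshold.

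Other genes of the choroid plexus, taken from 3 lists, were set beside the members. Of 35 genes, 34 had a median of at least 1 CPM in the rich set, and their median fold between the sets was 11.7. The median fold was 17.99 for 14 secreted and surface genes (range 3.09 to 171), 6.08 for 4 regulators (1.95 to 12.9) and 3.97 for 16 ion and solute transport genes (0.939 to 320). By the ratio rule, met by 0.0133% of genes at this level, 1 of the 34, Kcne2, was choroid-only, at a ratio 1.47 times as high in the poor set and a fold of 320. Kcne2 was named for this after its values were seen. None of the 27 tested genes of the 3 lists differed between genotypes in either fit, in edgeR or DESeq2. By unadjusted p, 0 of them with genotype alone and 1 at matched Ttr were under 0.05 in edgeR, and 11 and 1 in DESeq2, beside the shares of all genes given for the members, 5.74% and 6.63% in edgeR and 6.17% and 7.05% in DESeq2. Their median difference by list in edgeR was 0.18 to 0.25 with genotype alone and -0.24 to -0.06 at matched Ttr, beside 0.0031 and -0.0062 over all genes tested. In DESeq2 the median with genotype alone was 0.48 for transport genes, 0.19 for regulators and 0.94 for secreted and surface genes.

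**Figure D5:**
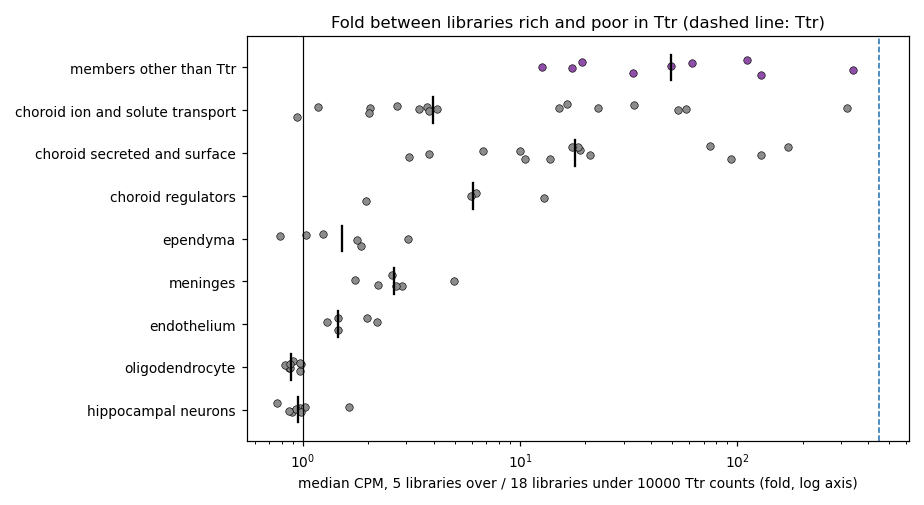
Fold between the median CPM of the 5 libraries over and the 18 libraries under 10000 Ttr counts (log axis), 1 point per gene, for the 9 members other than Ttr, 3 lists of other choroid plexus genes and 5 marker lists of other cells; bars are medians and the dashed line is Ttr at 450. Members lie at 12.6 to 341, oligodendrocyte and hippocampal neuron markers close to 1.

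Partners of the members in their pathways were described in the same way, and no test compared them with the members. Fgfr1, which pairs with klotho to bind FGF23, had a fold of 1.09 between the sets. Of the prolactin partners the median fold was 1.28, of those of thyroid hormone and retinol 1.204, of lysophosphatidic acid 0.966 and of folate 1.21. Cish, a prolactin target named after its values were seen, had the highest fold of these lists at 4.16, from a median of 2.40 CPM in the poor set. In the Ttr-poor libraries 2 of the 23 partner genes tested had a slope on Ttr by edgeR's quasi-likelihood test at an adjusted p under 0.05, where 9.44% of all genes did, and 0 of the 23 without KO library 8. They were Stat5b, which fell by 0.20, and Thra, which rose by 0.10 for each doubling of Ttr, named after their values were seen. Over all 23 libraries, again as a description, their slopes were -0.03 to 0.17. None of the 23 tested partner genes differed between genotypes in either fit, in edgeR or DESeq2, with 0 and 1 of them at an unadjusted p under 0.05 in edgeR, beside 5.74% and 6.63% of all genes, and 1 and 1 in DESeq2, beside 6.17% and 7.05%.

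The genes most like Ttr were ranked by the SD, over the 23 libraries, of the log2 ratio of their count to that of Ttr, among 15634 genes with at least 1 count in every library. The closest outside the members were F5, which encodes coagulation factor V, at 1.71, Mfrp at 1.86, 1500015O10Rik at 2.01, Cldn2, a tight junction claudin, at 2.03 and Sostdc1, a secreted antagonist of bone morphogenetic proteins, at 2.34. Folr1 stood in rank 5 with 2.06, followed among the members by Clic6 in rank 9, Enpp2 in rank 10, Prlr in rank 13, Kl in rank 14 and Otx2 in rank 16. The median SD over all ranked genes was 4.05. Kcnj13 and Slc4a5, with a library at 0 counts each, and Aqp1, which did not pass the filter, were not ranked. All these values share the Ttr count of each library, and nothing follows from them on shared control.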

How the data were processed

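RNA was sequenced from dissected hippocampus of 23 female mice, 12 Ins2+/+ and 11 Ins2-/-, with a stranded mRNA library kit per the labels' protocols. The authors deposited estimated counts per gene, of which 24.6% to 27.2% carried decimals among values above 0. Per the submitters' processing notes, bcl2fastq and STAR were used with mm10. The counting program, its use of strand and the annotation release are not given in the sources used here, so overlapping genes are reported as uncertain. The members and gene lists were chosen with earlier results of these data known.

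Columns were matched by library name, with 0 left unmatched. Rounded counts entered edgeR 4.0.16, run in R 4.3.3 (filterByExpr by genotype, TMM, robust quasi-likelihood F test, Benjamini-Hochberg adjustment over all tested genes, threshold 0.05). The 15828 genes tested held 99.8% of all counts. The models were genotype alone, genotype with log2 Ttr and its square, and the slope on log2 Ttr with genotype in the libraries under 10000 Ttr counts. Since animals are separate but nothing more is said of them, p-values set a difference against the spread between the libraries of these animals. For the members, that spread includes how far the libraries differed in Ttr, unless Ttr is in the model. Libraries of one genotype differed by at least 6.9 in chi-square per degree of freedom, more than counting error alone, and each was counted as 1 sample.

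Genes were placed with GENCODE M21 on GRCm38. The rule for named genes takes the 10 members, Ins2, called or defining genes of the lists, and the 5 genes closest to Ttr. The script was tested on simulated counts. Alternatives were DESeq2 1.42.0, RLE size factors, no filter, log2 Ttr alone, Ttr-poor libraries alone, other Ttr limits and leaving out each library. Python 3.11.15 with pandas 2.3.3 drew up the levels.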

Additional observations from a re-analysis of the deposited data

Results flagged for a closer look

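Within each genotype, the highest or lowest of the Ttr-poor libraries was compared with the others for each member, in 20 groups of 8 or 10 libraries. A value was picked out where its gap to the nearest library was a larger part of the group's range than Dixon's 95% limit. This met 7 of the 20 groups. Chance gives about 1 in 20 groups for normally distributed values in independent groups, which skewed CPM of genes from the same libraries are not, so that share is not the rate for these data. The 7 values came from 4 libraries, those of the same library not being independent.

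KO library 8 was far above the other KO libraries for Prlr, at 42.5 CPM against 6.11 CPM in the next, and for Clic6, at 25.8 CPM against 5.58 CPM. It is the library with the hypothalamic genes and 7 Ttr counts. WT library 15 was far above the other WT libraries for Prlr, at 12.6 CPM against 8.41 CPM, for Otx2, at 6.46 CPM against 2.51 CPM, and for Clic6, at 15.96 CPM against 4.91 CPM. Its Ttr level was 45.2 CPM, its ependymal sum the highest of the poor set at 59.5 CPM, and its hippocampal neuron sum, 617 CPM, the lowest apart from KO library 8. Its hypothalamic sum, 5.83 CPM, was the highest of the WT libraries, the next being 3.08 CPM. Of the 5.83 CPM, Nkx2-1 alone made up 3.99 CPM (89 counts), against 19.5 CPM in KO library 8 and at most 0.844 CPM elsewhere. The other listed hypothalamic markers were low in WT library 15, with Hcrt, Oxt and Sim1 at 0 counts and Pomc the highest at 0.897 CPM. KO library 4 was far above the other KO libraries for Otx2, at 8.97 CPM against 2.76 CPM, with Ttr at 20.6 CPM. Of its hypothalamic sum of 8.48 CPM, Pomc alone made up 7.93 CPM, and Hcrt, Avp and Sim1 had 0 counts. WT library 11 stood apart for Kcnj13, at 1.27 CPM against 0.493 CPM. Gigyf2, whose exons overlap it on the opposite strand, was at 86.8 CPM there, and the meningeal sum, 105 CPM, was the highest of the Ttr-poor WT libraries. The part of neighbouring tissue in these values was not tested.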

How the results depend on the processing

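No paired analysis was possible because no replicate number occurs in both genotypes. With RLE size factors or no filter, the members kept their side of the threshold in all 3 fits. Beside the 2 genes called by genotype, DESeq2 called 4 with and 4 without replacing outlying counts, and 9 beside 2 at matched Ttr. In place of matched Ttr, the Ttr-poor libraries alone gave 1 called gene, also without a filter and without both the filter and KO library 8. Where only the direction turned, no member passed the threshold and the cause was not tested. With log2 Ttr alone, the difference at matched Ttr became 0.062 for Kl, 1.06 for Prlr, 0.37 for Enpp2, 0.10 for Folr1 and 1.10 for Clic6. In the Ttr-poor libraries it was 0.59 for Prlr and 0.52 for Clic6, and without a filter 0.60, 0.53 and, for Enpp2, 0.0013. Leaving out KO library 8 there gave 0.022 for Enpp2, and 0.030 without a filter, and over all other libraries without a filter 0.014 for Folr1. The slopes of Prlr and Clic6 over all 23 libraries were 0.40 and 0.44. Without KO library 8 and the filter, edgeR called 0 slopes, with -0.043 for Kl, 0.15 for Prlr and 0.78 for Clic6. DESeq2 without that library, an alternative chosen after seeing the data like every other that leaves it out by name, called 973, with -0.044, 0.15 and 0.75.

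Leaving out each library in turn moved the genotype difference from -0.58 to 2.98 for Ttr, -0.66 to 1.69 for Kl, -1.02 to 2.42 for Prlr, -0.80 to 1.89 for Otx2, -0.64 to 2.02 for Enpp2, -0.67 to 2.61 for Folr1 and -0.62 to 2.32 for Clic6, the lowest without KO library 12 and the highest without WT library 17. At matched Ttr it gave 2 to 4 called genes and -0.57 to 0.34 for Otx2, -0.10 to 0.067 for Folr1 and -0.46 to 0.12 for Clic6. Slopes in the Ttr-poor libraries gave 0 to 2214 called genes, 0 without KO library 8 and 2214 without KO library 18, and ran from -0.045 to 0.12 for Kl, -0.37 to 0.15 for Prlr and -0.29 to 0.78 for Clic6. Depth limits Aqp1, Kcnj13, Slc4a5 and Folr1, which had at most 49 counts in a Ttr-poor library.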
